A study of Bos taurus with 28 samples.

Results

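Gene expression in subcutaneous adipose tissue (AT) was compared between day 13 (PP2) and day 6 (PP1) after calving. The comparison took every library of these time points, which were 9 at PP2 and 10 at PP1 and together 19 of the 28 RNA-seq libraries in the series. Genes were kept when at least 3 reads were counted in at least 1 of the 19 libraries, which left 18518 genes. All were Holstein cows without disease that had calved before and were enrolled in their dry period, and no drug or other treatment set the groups apart. Each biopsy came from the right flank, from an incision that was moved at each collection, and all cows ate the same diet for fresh cows after calving. The remaining 9 libraries were taken before calving (PreP, day -11), and their values are set beside the others only as levels. The labels name the cow of each library, so that 9 cows had both a PP1 and a PP2 library and cow B5054 had only PP1. Differences below are PP2 against PP1, as log2 fold change (log2FC), and a differentially expressed gene (DEG) had a false discovery rate (FDR) under 0.05 and an absolute log2FC over 1.

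After calving a dairy cow puts more energy into milk than she takes in with feed, and the adipocytes of the subcutaneous depot break down stored triglycerides and release fatty acids and glycerol. Hormone-driven lipases carry out this lipolysis, while the enzymes of fatty acid and glycerolipid synthesis are held down. AT that loses lipid also takes up or expands macrophages, which clear lipid and cell debris, and it remodels its matrix and vessels. In bulk tissue such as these biopsies, fewer cells of a type and less RNA per cell cannot be told apart.

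Total counts ran from 16397849 to 22284884 reads per library at PP1 and from 16235564 to 21762196 at PP2, so that 3 reads equalled 0.129 to 0.201 CPM, reads scaled to library size. A gene symbol was linked to 1760 of the 18518 genes (9.5%), and 399 of those belong to the 18 pathway lists described here. Each list therefore holds only the members that could be linked. Those tested were 12 of 81 listed symbols for the respiratory chain, 10 of 77 for the cytosolic ribosome and 18 of 42 for macrophages. PPARG, the master regulator of adipocytes, was read in all 19 libraries, with 57.0 to 238 CPM at PP1 and 18.6 to 167 CPM at PP2, and RBP4, an adipokine, with 89.6 to 2142 and 101 to 1736 CPM. ADIPOQ and PLIN1 were not linked to an ID here, so that their levels were not analysed.

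A few libraries stood apart from their groups, and many of the results that rest on them are given with and without them. The PP2 library of cow B5090 held RNA of skeletal muscle. The 24 muscle genes that were tested summed to 14249 CPM in it and to between 52.3 and 102 CPM in each of the other 27 libraries. The library labelled PP1 of cow B5169 was more like the PreP libraries of the other cows (r = 0.983 over genes with their mean log2 CPM) than like their PP1 libraries (r = 0.959), and the PreP library of the same cow was most like the PP2 libraries (r = 0.971, against 0.967 with PreP). Many libraries of other cows were also most like another time point. The PP1 library of B5079 had r = 0.98 with PreP and 0.978 with PP1. For the PP2 library of B4987, r was 0.964 with PP1 and 0.952 with PP2. Whether the PreP and PP1 libraries of B5169 were exchanged was not tested, and the differences of that cow are given as labelled. The PP2 libraries of B4886 and B5064 were also less like the mean of PP1 (r = 0.931 and 0.946) than 6 of the other PP2 libraries, which were between 0.964 and 0.982, and that of B5090 was at 0.914. In these correlations genes are not independent replicates, and they are given as a description.

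**Figure D1:**
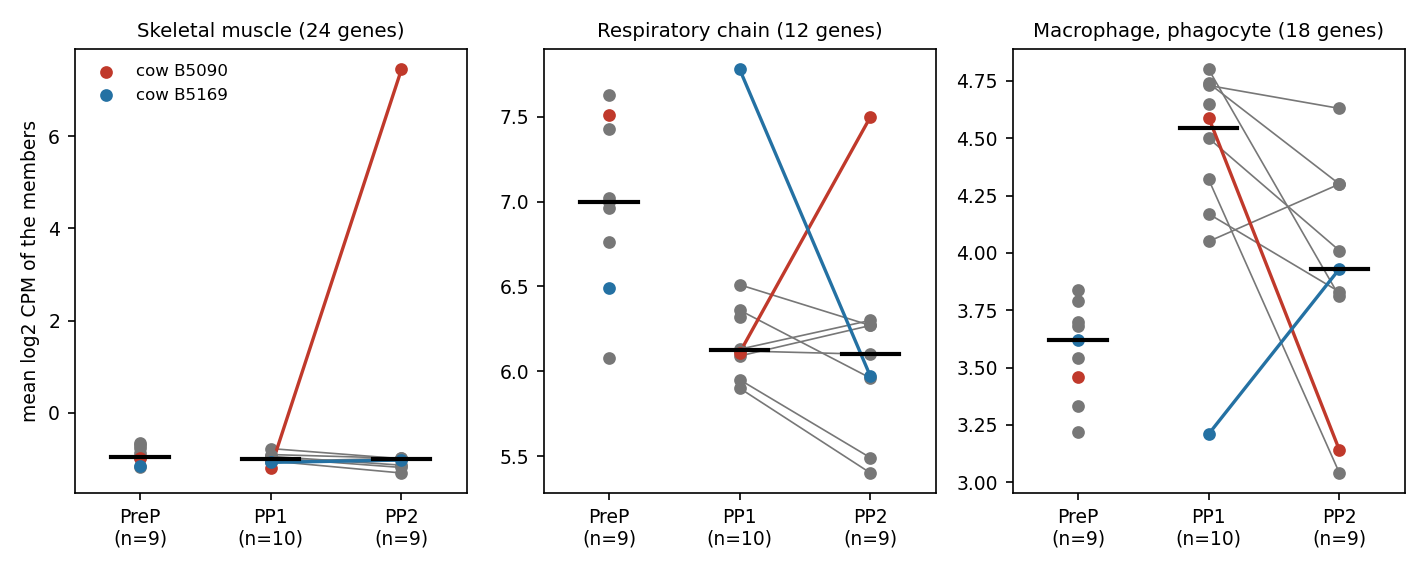
Mean log2 CPM of the genes of selected lists (vertical axes) in each library at PreP, PP1 and PP2 (horizontal axis), with 1 point per library, a bar at the group median and lines that join PP1 and PP2 of the same cow (B5090 in red, B5169 in blue). The PP2 library of B5090 stands far above all others for skeletal muscle, and the macrophage genes of PP1 run from 3.21 in the library labelled PP1 of B5169 to 4.80.

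Between day 6 and day 13 no gene met the DEG criteria. The number of DEGs was 0 of 18518 (0%) in the quasi-likelihood test of edgeR, with a smallest FDR of 0.0879. DESeq2 and limma voom also gave 0 DEGs. At an unadjusted p under 0.05 edgeR had 1037 genes (5.6%), of which 671 were higher at PP2 (3.62%) and 366 lower (1.98%), while DESeq2 had 573 and limma voom 720. Across all genes the median log2FC was 0.03, and 9917 genes (53.6%) had a higher and 8601 a lower fitted value. Of the 1037 genes, 407 had more than 50% of their summed PP2 CPM in the PP2 library of B5090. Without that library and the library labelled PP1 of B5169, 482 of 18332 genes had an unadjusted p under 0.05 (2.63%), 194 higher (1.06%) and 288 lower (1.57%), with 0 DEGs by edgeR. The 2 sets shared 385 genes. Without the PP2 libraries of B4886 and B5064 as well, 976 of 18242 genes had an unadjusted p under 0.05 in edgeR. Of these, 608 were higher and 368 lower, and there were 0 DEGs. With cow as a replicate block, a fit that compares each cow with herself, 430 genes had an unadjusted p under 0.05, 156 higher and 274 lower, and 1 gene (0.0054%) met the DEG criteria in edgeR. The block in limma voom gave 1575 genes at an unadjusted p under 0.05, 873 higher and 702 lower, and 0 DEGs. The DEG of the edgeR block, ENSBTAG00000007547, has no symbol here and had 130 CPM in the PP2 library of B5090 and 7 reads in the other 18 libraries together.

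Other fits of the same counts did call genes. The likelihood ratio test of edgeR called 160 genes (0.864%), 150 higher and 10 lower, and 147 of them had more than 50% of their PP2 CPM in the PP2 library of B5090. A fit of all 3 time points together called 176 of 18905 genes (0.931%), 172 higher and 4 lower, and the same library held more than 50% of the PP2 CPM of 171. Leaving out each cow in turn gave 0 DEGs every time in edgeR, with 614 (without B5090) to 1205 (without B4987) genes at an unadjusted p under 0.05.

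The absence of DEGs does not show that levels were equal. Of the 13655 genes with a mean of at least 1 CPM, 9750 (71.4%) had a 95% interval that lay within a log2FC of -1 to 1, which is at most a 2-fold difference either way. For 1546 genes (11.3%) the interval was wider than 2 on the log2 scale. The median interval was 1.19 wide and the median SE was 0.29.

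The smallest p among genes lower at PP2 was that of ENSBTAG00000030493, which has no symbol here. Its PP1 libraries had 2.60 to 23.8 CPM with a median of 8.94, and its PP2 libraries 1.65 to 7.22 CPM with a median of 3.17. The groups overlapped, but each of the 9 cows was lower at PP2. Its log2FC was -1.53 (SE 0.35, 95% interval -2.26 to -0.80, FDR = 0.0879 in edgeR), and the exact paired permutation test over 512 sign changes gave p = 0.00391, the smallest it can give. Without both libraries that stood apart the log2FC was -1.47. ACBD7, of the acyl-CoA binding domain family, had 0.450 to 13.4 CPM at PP1 (median 2.76) and 0.0573 to 1.35 CPM at PP2 (median 0.803). It was lower at PP2 in 8 of 9 cows, with a log2FC of -2.38 (SE 0.60, FDR = 0.115 in edgeR, exact paired permutation p = 0.0117), and -2.52 without both libraries. CNGA1, a channel subunit of photoreceptors, also had a low p-value among genes lower at PP2, but its levels were at most 0.313 CPM at PP1 and 0 CPM at PP2, near the limit of detection.

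Macrophage and phagocyte genes had the lowest median of the pathway lists in the fit of all libraries without a block. Of 18 tested, 14 had a lower and 4 a higher value at PP2, with a median log2FC of -0.30 against 0.03 over all genes. None met the DEG criteria, 3 were lower at an unadjusted p under 0.05 (1.98% of all genes were) and 1 was higher (3.62% of all genes). Without both libraries that stood apart 15 of 18 were lower (median -0.38), with 4 lower and 0 higher at an unadjusted p under 0.05 in edgeR (1.57% and 1.06% of all genes), and without the PP2 libraries of B4886 and B5064 as well the median was -0.22. Over all 25 alternative settings the median ran from -0.43 to -0.12, below 0 in each. The replicate block of cow gave -0.29, where cell division genes were lower, at -0.49.

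GPNMB, a glycoprotein of lipid-laden macrophages, had 67.9 to 723 CPM at PP1 (median 237) and 31.9 to 277 CPM at PP2 (median 82.0). It was lower in 8 of 9 cows although the groups overlapped, and its log2FC was -1.22 (SE 0.42, 95% interval -2.09 to -0.34, FDR = 0.491 in edgeR, exact paired permutation p = 0.0156). MSR1, the scavenger receptor that takes up modified lipoproteins, had 15.3 to 93.7 CPM at PP1 (median 74.5) and 8.97 to 67.3 CPM at PP2 (median 35.6). It too was lower in 8 of 9 cows, with a log2FC of -1.03 (SE 0.37, FDR = 0.567 in edgeR, exact paired permutation p = 0.0312). LGALS3, the lectin galectin-3 of phagocytes, had 99.0 to 716 CPM at PP1 (median 302) and 48.9 to 271 CPM at PP2 (median 207). It was lower in 8 of 9 cows, with a log2FC of -0.84 (SE 0.33, FDR = 0.681 in edgeR, exact paired permutation p = 0.0234). Without both libraries that stood apart these log2FC were -1.21 for GPNMB, -1.02 for MSR1 and -0.76 for LGALS3, and without 4 libraries they were -1.07, -0.71 and -0.82, so the sign did not rest on those libraries. CD68, a lysosomal protein of macrophages, had a median of 215 CPM at PP1 and 111 CPM at PP2, against 41.9 at PreP, with a log2FC of -0.68 (95% interval -1.43 to 0.08). The 4 members with higher fitted values were PSTPIP2, an adaptor of the phagocyte cytoskeleton, at 1.39, and TYRO3, TCIRG1 and HCLS1 at 0.11, 0.08 and 0.08. PSTPIP2, the member that was higher at an unadjusted p under 0.05, had 203 CPM in the PP2 library of B5090 and at most 20.5 CPM in the other PP2 libraries, and its log2FC was -0.38 without both libraries that stood apart. After adjustment over all genes the exact paired tests reached 0.99 at the smallest. This test gives no p under 0.00391, so its adjusted values can be small only if very many genes reach that p.

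By cow the macrophage difference was uneven. The mean over the 18 genes was lower at PP2 in 7 cows and higher in 2. It was -1.45 on the log2 scale in B5090, -1.28 in B5064 and -0.99 in B4886, the cows whose PP2 libraries stood apart. In the other cows it was -0.49 in B5079, -0.43 in B5165, -0.35 in B5102 and -0.10 in B5129. It was 0.25 in B4987 and 0.72 in B5169, the cow whose library labelled PP1 had the lowest macrophage level of its group. As mean log2 CPM, the list lay between 3.22 and 3.84 at PreP, where its median was 3.62. It lay from 4.05 to 4.80 in the other 9 PP1 libraries (median of all 10, 4.54) and from 3.04 to 4.63 at PP2 (median 3.93). The PP2 libraries overlapped with both other time points.

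**Figure D2:**
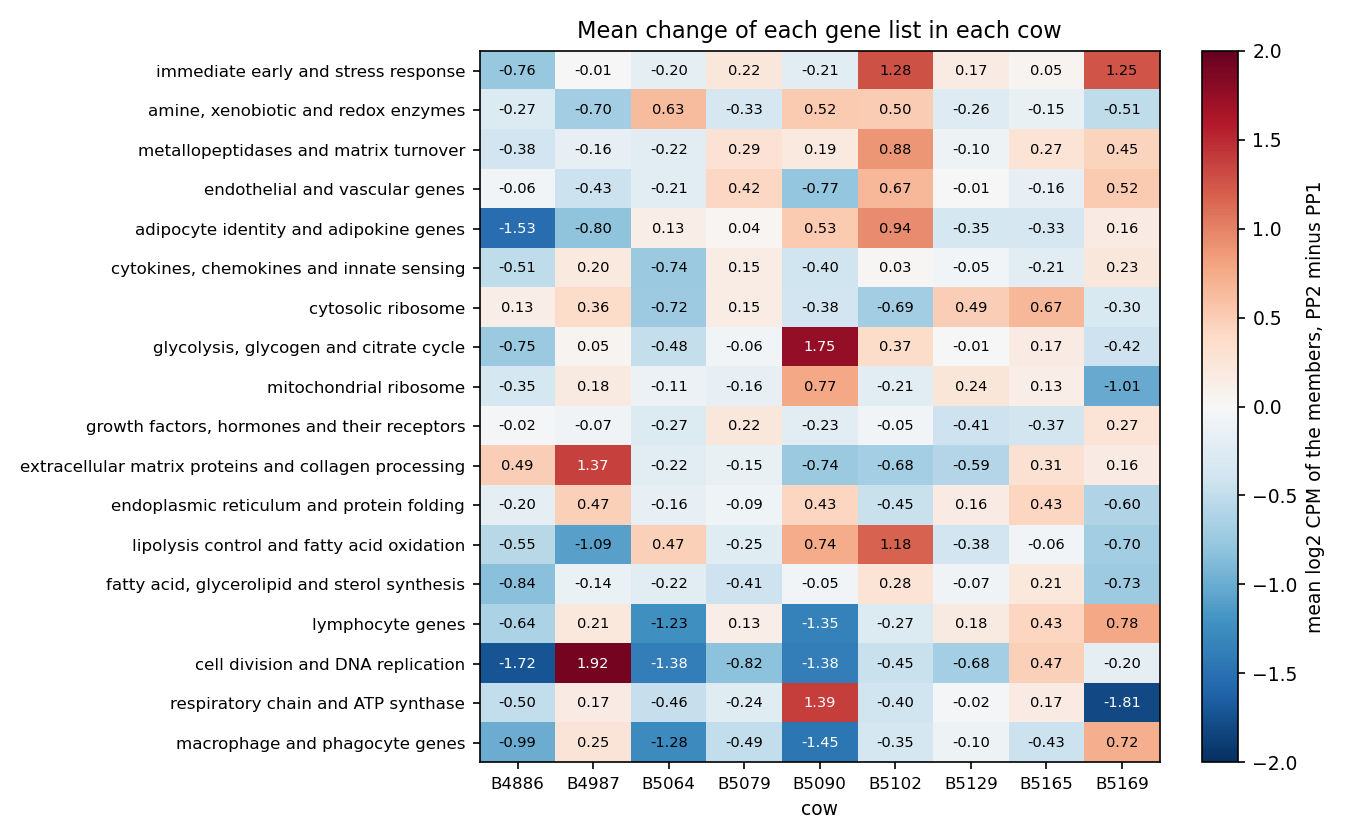
Mean PP2 against PP1 difference in log2 CPM over the genes of each list (colour scale) for each of the 9 cows with both libraries (columns). The macrophage genes are lower in 7 cows, by up to 1.45 in B5090, and the cell division genes run from -1.72 in B4886 to 1.92 in B4987.

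Other immune genes had no common direction. Of 36 cytokine, chemokine and innate sensing genes, 20 were higher and 16 lower (median 0.08, and -0.00 without both libraries that stood apart), and of 25 lymphocyte genes, 11 were higher and 14 lower (median -0.08). IL18, an inflammasome cytokine, had 5.05 to 55.7 CPM at PP1 and a log2FC of -0.89 (95% interval -1.75 to -0.03, FDR = 0.860 in edgeR). CXCR4, the chemokine receptor that guides lymphocytes, had 8.50 to 27.0 CPM at PP1 (median 12.2) and 4.28 to 16.4 CPM at PP2 (median 7.86). It was lower in 7 of 9 cows, with a log2FC of -0.61 (FDR = 0.864 in edgeR, exact paired permutation p = 0.0469). IL4R, a receptor subunit for IL4 and IL13, was higher in 8 of 9 cows, with a median of 125 CPM at PP1 and 168 CPM at PP2 and a log2FC of 0.27 (95% interval -0.14 to 0.68). DOCK8, a guanine nucleotide exchange factor of lymphocytes, had a log2FC of -0.14 (95% interval -0.73 to 0.46). IL17A was at 0 CPM in every PP1 library and at most 0.201 CPM at PP2, at the limit of detection.

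The medians of the lipid gene lists were close to 0, and their largest fitted differences shrank without the library labelled PP1 of B5169. Only part of each pathway was tested, with 19 of 57 listed synthesis symbols and 21 of 51 for lipolysis and oxidation. Of 19 genes of fatty acid, glycerolipid and sterol synthesis, 11 were lower and 8 higher (median -0.07), and without both libraries that stood apart 12 were higher (median 0.09). By cow the mean of the synthesis genes was lower at PP2 in 7 of 9, from -0.84 to 0.28, and the median was -0.13 with the replicate block. Of 21 genes of lipolysis and fatty acid oxidation, 12 were lower and 9 higher (median -0.06, and 0.09 without both libraries). PCK1, the enzyme of glyceroneogenesis that supplies glycerol for re-esterification, had 207 CPM in the library labelled PP1 of B5169 and 2.13 to 52.3 CPM in the other 9 PP1 libraries, against 1.89 to 34.0 CPM at PP2. Its log2FC was -1.27 (95% interval -2.87 to 0.33), and -0.11 without both libraries. PCYT2, which makes the head group of phosphatidylethanolamine, had 457 CPM in that library and 18.6 to 44.0 CPM in the other 9, with a log2FC of -1.17 and, without both libraries, 0.22. BDH1, a ketone body dehydrogenase, had 177 CPM against 0.182 to 1.65 CPM in the other 9, with a log2FC of -3.36 (FDR = 0.655 in edgeR) and, without both, -0.03. Without the library labelled PP1 of B5169 alone, the log2FC were -0.13 for PCK1, 0.29 for PCYT2 and 0.93 for BDH1, which had 9.04 CPM in the PP2 library of B5090.

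Other lipid enzymes were also highest at PP1 in the library of B5169. ACSM1, a medium-chain acyl-CoA synthetase, had 721 CPM in it and at most 382 CPM in the other 9, with a log2FC of -0.84 (95% interval -2.01 to 0.34) that was -0.37 without it. ACAT2, of sterol and ketone metabolism, had 72.4 CPM in it and 11.0 to 23.4 in the other 9 PP1 libraries, with a log2FC of -0.40 and 0.09 without both. At PreP 4 of these genes had medians of 120 (PCK1), 169 (PCYT2), 19.8 (BDH1) and 44.3 CPM (ACAT2), and the lowest PreP value of each, 17.5, 40.3, 0.797 and 15.4 CPM, was that of the PreP library of B5169. ANGPTL4, a lipoprotein lipase inhibitor induced by fasting, was higher in 8 of 9 cows, with a median of 222 CPM at PP1 and 260 CPM at PP2 (log2FC 0.33, 95% interval -0.17 to 0.83), although the log2FC was 0.21 without B5064 and 0.12 without 4 libraries. PPARG was lower in 8 of 9 cows, with medians of 106 and 81.2 CPM (log2FC -0.50, 95% interval -1.22 to 0.23, with -0.31 without B4987 and -0.08 without 4 libraries), and RBP4 had a log2FC of -0.17 (95% interval -1.33 to 0.99). CERS2, a ceramide synthase, had the narrowest spread of these, with a log2FC of -0.04 (95% interval -0.36 to 0.27). Of 13 adipocyte genes, 7 were higher and 6 lower.

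**Figure D3:**
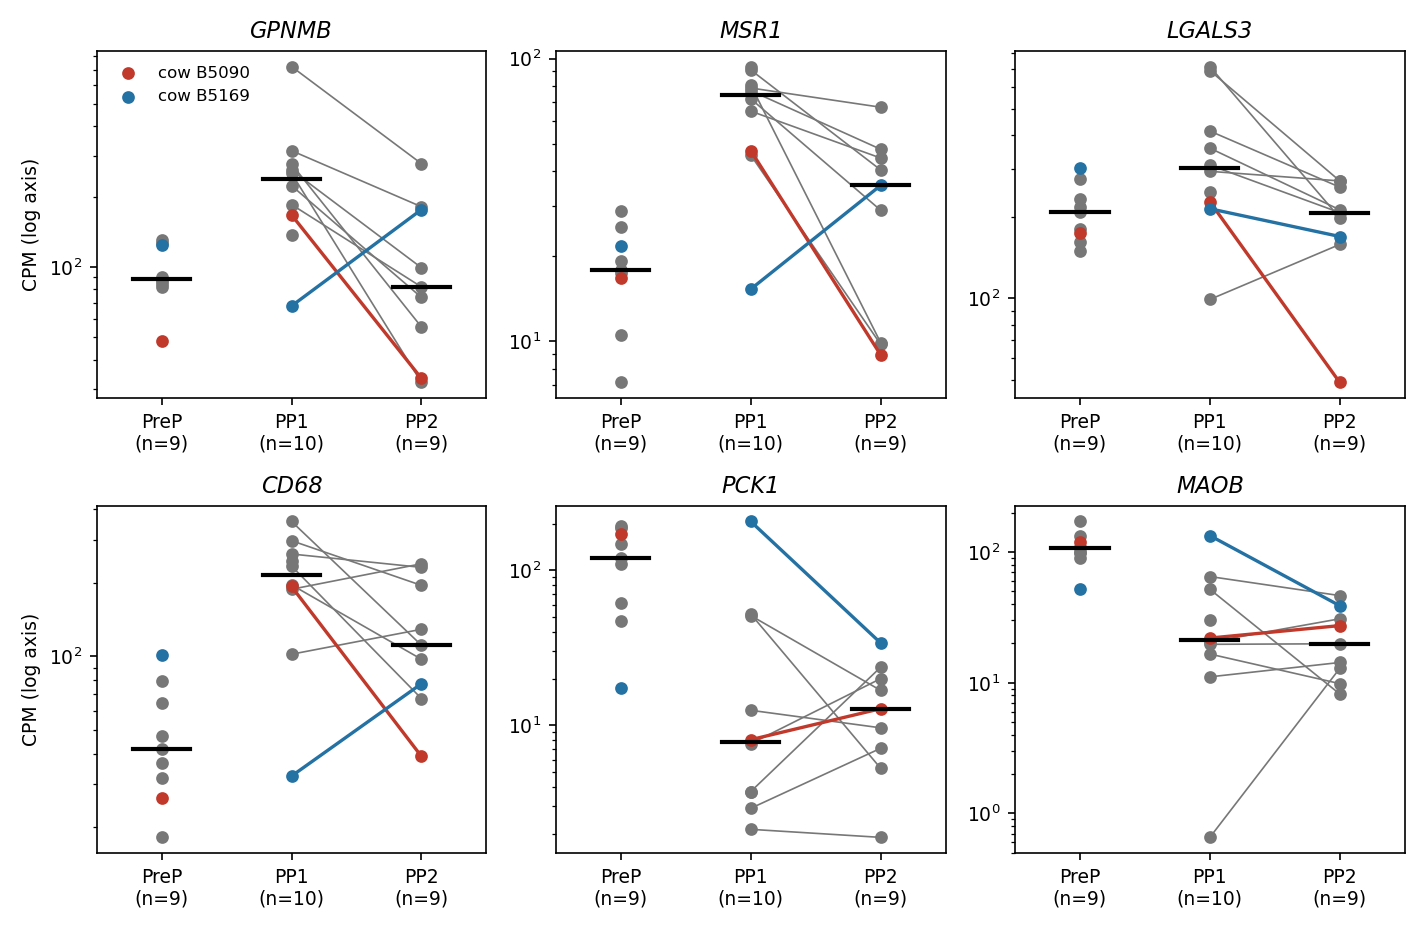
CPM of named genes on a log axis (vertical) in each library at PreP, PP1 and PP2, with lines that join PP1 and PP2 of the same cow (B5090 in red, B5169 in blue) and a bar at the group median. GPNMB, MSR1 and LGALS3 are lower at PP2 in 8 of 9 cows each, and the PP1 levels of PCK1 (207 CPM) and MAOB (134 CPM) are highest in the library of B5169.

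The largest positive differences in energy metabolism belonged to the PP2 library of B5090. PYGM, the muscle glycogen phosphorylase, had 6669 CPM in it and at most 2.96 CPM in the other 27 libraries, so that its log2FC of 9.17 (FDR = 0.0879 in edgeR) became 0.51 without both libraries that stood apart. PFKM, the muscle phosphofructokinase, had 1732 CPM against 17.7 to 33.8 CPM in the other 8 PP2 libraries, and its log2FC was 3.26 and 0.17 without both. All 24 muscle genes had higher fitted values, as had 53.6% of all genes. At an unadjusted p under 0.05 in edgeR, 22 were higher (3.62% of all genes were). The median log2FC of the muscle genes was 6.11, against -0.06 without both libraries (8 of 20 higher) and 0.60 with cow as a replicate block. Among them MYO18B, a sarcomere-associated myosin, had 903 CPM, MYOZ2, a Z-disc protein, 340 CPM and CKMT2, the mitochondrial creatine kinase of striated muscle, 311 CPM, where the highest PP1 library had 0.537, 0.416 and 0.431 CPM. MYADML2 had 81.3 CPM in it and at most 0.100 CPM at PP1. The transcript without symbol ENSBTAG00000007090 had 20710 CPM in it and at most 0.0534 CPM in the other 18 libraries.

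Some chaperones and a growth factor binding protein were also highest in that library. HSPB2, a small heat shock protein of muscle, had 169 CPM in the PP2 library of B5090 and 3.82 to 7.02 CPM at PP1, with a log2FC of 2.21 that was 0.30 without both libraries, and WFIKKN2, a binder of myostatin, had 44.9 CPM against 0.100 to 1.25 CPM at PP1 (log2FC 3.45, and 0.15 without both). Of 29 genes of the endoplasmic reticulum and protein folding, 16 were higher (median 0.03). At an unadjusted p under 0.05 in edgeR 3 were higher, as were 3.62% of all genes. These were HSPB2, HSPB8 and CRYAB, each highest in that library. HSP90AB1, a constitutive chaperone, had a log2FC of -0.12 (95% interval -0.47 to 0.24).

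The medians of the respiratory chain and glycolysis lists changed sign with the libraries that stood apart. Of 12 respiratory chain and ATP synthase genes, 9 were lower (median log2FC -0.18), and the median was -0.39 without the PP2 library of B5090, 0.17 without the library labelled PP1 of B5169 and -0.09 without both. ATP5F1A, the alpha subunit of the F1 part of ATP synthase, had 1397 CPM in the library labelled PP1 of B5169 and 1035 CPM in the PP2 library of B5090, where the group medians were 389 and 369 CPM. COX8B, a subunit of cytochrome oxidase in muscle and brown fat, had 145 CPM in the PP2 library of B5090 and a median of 12.5 CPM at PP2, so that its log2FC of 0.89 was -0.08 without both. Of 18 genes of glycolysis, glycogen and the citrate cycle, 11 were higher (median 0.06, and -0.05 without both libraries). PKM, a pyruvate kinase, had 2163 CPM in the PP2 library of B5090 and medians of 416 CPM at PP1 and 589 CPM at PP2 (log2FC 0.76, and 0.34 without both).

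The medians of the matrix and vessel lists were small, while the log2FC of single matrix genes ran from -2.07 to 1.28. Of 27 genes of extracellular matrix proteins and collagen processing, 17 were higher and 10 lower (median 0.05), and 3 were lower at an unadjusted p under 0.05, as were 1.98% of all genes. Of these, CCN3, a matricellular protein, had 1053 CPM in the PP1 library of B4886 and medians of 138 CPM at PP1 and 149 CPM at PP2, with a log2FC of -1.20 and lower levels in 5 of 9 cows, and the log2FC was -0.69 without B4886 and -0.53 with cow as a replicate block. MFAP5, a microfibril protein, was lower in 7 of 9 cows, with a log2FC of -0.70 (95% interval -1.37 to -0.03, FDR = 0.853 in edgeR), and IGSF10 had a log2FC of -1.30. FBN1, which builds microfibrils, had medians of 1502 and 1485 CPM (log2FC -0.54, 95% interval -1.27 to 0.18), and the log2FC was -0.28 without B4886, whose PP1 library had 4062 CPM.

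The metallopeptidase list had 13 of 18 genes higher (median 0.15, and 0.06 to 0.28 over all 25 alternative settings). ECE1, which processes endothelin, had a log2FC of 0.34 (95% interval -0.11 to 0.80, and 0.19 without B4886), and PLG, the precursor of plasmin, was under 3 reads per library or near it, with at most 0.215 CPM. Of 20 endothelial and vascular genes, 12 were higher (median 0.12, and 0.01 to 0.20 over the settings). LYVE1, a hyaluronan receptor of lymphatic vessels and resident macrophages, had medians of 51.0 and 36.8 CPM (log2FC -0.76, 95% interval -1.67 to 0.15), which was -0.32 without B4886 (197 CPM at PP1), and PDGFRB, a receptor of pericytes and progenitors, had 533 and 529 CPM (log2FC 0.20).

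Immediate early and stress genes were higher in 13 of 19 cases (median 0.21, and 0.10 to 0.28 over the settings). NR4A3, an orphan nuclear receptor induced by cyclic AMP, had 0.308 to 11.1 CPM at PP1 (median 4.21) and 0.854 to 37.9 CPM at PP2 (median 5.16). It was higher in 5 of 9 cows, with a log2FC of 1.37 (95% interval -0.10 to 2.85, and 0.89 without B4987). NR4A1, its close relative, was higher in 7 of 9 cows, but its highest value of 981 CPM was a PP1 library, and its log2FC was 0.14 (95% interval -1.26 to 1.55). Its log2FC was 1.29 under the replicate block of cow, 1.43 without B5090 and -0.42 without B5165. The spread between libraries was therefore far wider than the difference.

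**Figure D4:**
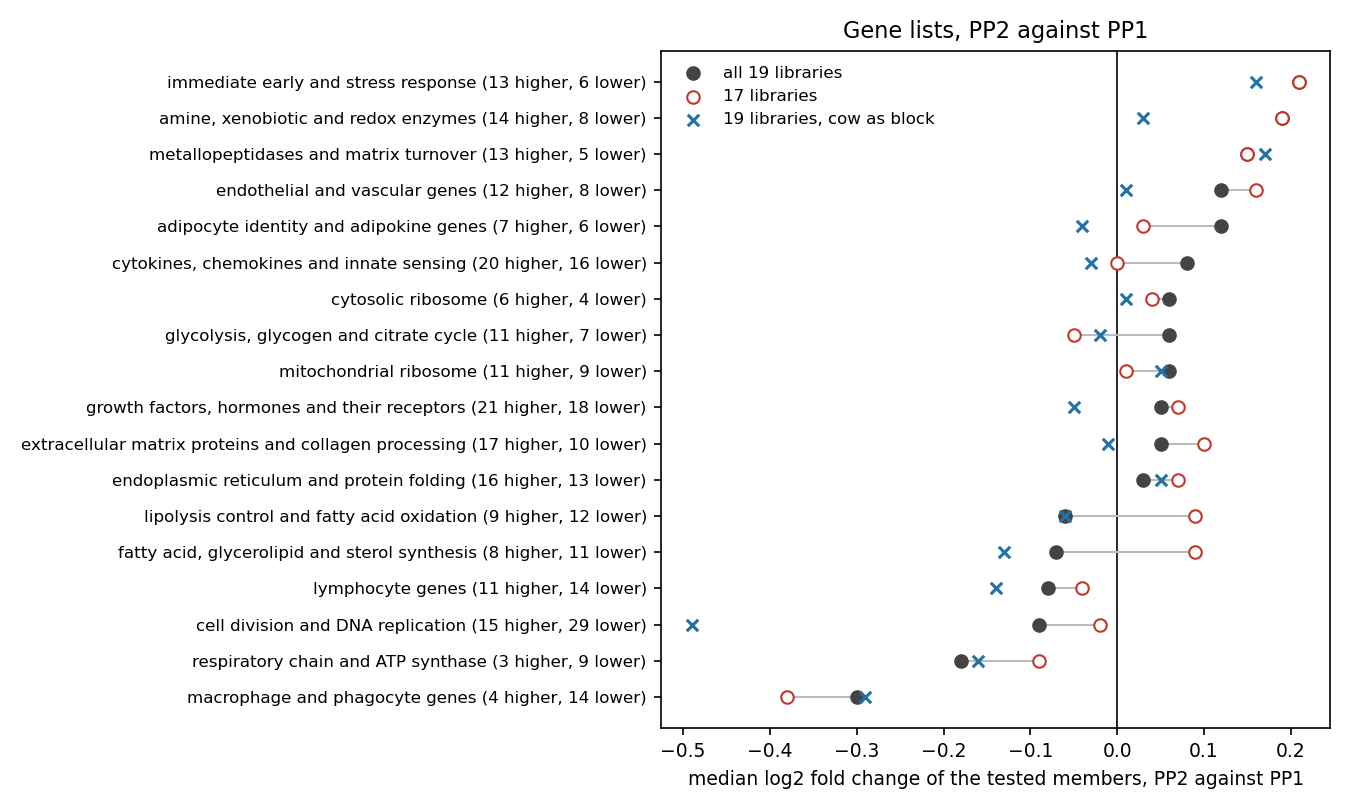
Median log2FC at PP2 against PP1 of the genes of each pathway list (horizontal axis) for all 19 libraries, for 17 libraries (without both that stood apart) and for the fit with cow as block. The macrophage list has the lowest median for all libraries (-0.30) and stays below 0, while the synthesis and lipolysis lists cross from -0.07 and -0.06 to 0.09 without both libraries.

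Cell division genes varied widely between cows. Of 44 genes of cell division and DNA replication, 29 were lower (median log2FC -0.09). With cow as a replicate block the median was -0.49, and without the 4 libraries that stood apart it was 0.18, with 31 of 44 higher. The mean over the genes was lower at PP2 in 7 cows, by 1.72 in B4886, and higher by 1.92 in B4987 and by 0.47 in B5165. MKI67, a marker of dividing cells, had 4.07 to 61.3 CPM at PP1 and 2.03 to 89.5 CPM at PP2, with the highest PP2 value in B4987 (log2FC 0.04, 95% interval -1.35 to 1.43). HAUS1, of the mitotic spindle, had a log2FC of -0.41 (-0.26 without B5064). DNMT1, the maintenance DNA methyltransferase, had a log2FC of 0.15 (0.01 without B4987 and 0.28 without B5090).

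The medians of the ribosomal protein lists were close to that of all genes. Of 10 cytosolic genes 6 were higher and of 20 mitochondrial genes 11 were higher, both with a median log2FC of 0.06. The mitochondrial median was -0.09 without the PP2 library of B5090 and 0.14 without the library labelled PP1 of B5169. RPLP2 and RPS12, of the large and the small cytosolic subunit, had log2FC of 0.17 (95% interval -0.21 to 0.56) and 0.08 (95% interval -0.44 to 0.61). For MRPL19 and MRPL9, of the large mitochondrial subunit, it was -0.34 and -0.07, and -0.19 and 0.10 without the library labelled PP1 of B5169. Of 22 amine, xenobiotic and redox enzymes, 14 were higher (median 0.19, and 0.03 with cow as a replicate block), while without 4 libraries 7 were higher and 14 lower (median -0.03), and by cow the mean was higher in 3 and lower in 6. NXN, a redox regulator of WNT signalling, had a log2FC of 0.66 (95% interval -0.01 to 1.32, and 0.37 without both libraries). EPHX1, an epoxide hydrolase, had a log2FC of 0.21 (0.00 without B5064 and 0.40 without B4987). CYP1A1, a xenobiotic oxidase, had one of -1.12 (95% interval -2.82 to 0.57) and MAOB, a monoamine oxidase, of -0.68 (-0.22 without both).

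Among 39 growth factors, hormones and receptors, 21 were higher and 18 lower (median 0.05, and -0.05 with the replicate block), while the mean of the genes by cow was lower at PP2 in 7 of 9. FZD7, a WNT receptor, had 15.7 to 30.5 CPM at PP1 and was higher in 8 of 9 cows, with a log2FC of 0.61 (SE 0.20, FDR = 0.389 in edgeR, exact paired permutation p = 0.00781), and 0.39 without both libraries. WNT16, a WNT ligand, had 0.251 to 3.08 CPM at PP1 and at most 0.740 CPM at PP2, and was lower in 8 of 9 cows, with a log2FC of -1.62 (FDR = 0.774 in edgeR, exact paired permutation p = 0.0195). The groups overlapped for both the receptor and the ligand.

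The direction of most lists was not stable. Of the 18 medians 12 were above 0 and 6 below, and the sign was kept in all 25 alternative settings for 4 lists, which were macrophage genes (below 0) and metallopeptidase, endothelial, and immediate early genes (above 0). By cow, however, the mean of the genes was higher at PP2 in only 5, 3 and 5 of 9 cows for the latter lists, against lower in 7 of 9 for the macrophage genes. The lists of lipid synthesis, cell division and growth factors were also lower in 7 of 9 cows. Scaling alone, by total counts, changed the sign of 5 lists and moved the median of all genes from 0.03 to -0.02. Of lists of other cell types apart from muscle, the medians were -0.15 for epithelium and skin (14 genes), 0.08 for neutrophils and red blood cells (7), 0.13 for peripheral nerve (5) and 0.35 for mesothelium (4). In the same order they were -0.06, -0.03, 0.26 and -0.38 without both libraries that stood apart. Without 4 libraries they were -0.10, -0.20, -0.10 and -0.57.

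The difference between PP1 and PP2 varied widely from cow to cow. Of the 13655 genes with a mean of at least 1 CPM, the share with more than a 2-fold difference between the PP1 and PP2 libraries of the same cow was 8.85% in B5079, 47.9% in B4886 and 55.7% in B5064. In B5064, 2647 genes were higher and 4963 lower, and in B4886 1647 and 4889. Only 16 genes (0.0864% of 18518) were higher at PP2 in all 9 cows and 37 (0.2%) lower, and 44 of the 53 had a mean of at least 1 CPM. With random directions, 1 of the 512 sign changes puts all 9 cows higher and 1 puts all lower, so chance alone gives such genes. Those of the 53 with a symbol were EXO5, an exonuclease (log2FC -0.74), MPZL1, a cell surface glycoprotein (-0.27), TBX19, a T-box factor (-0.85), RBM14, a coactivator (0.40), and SNTB2, a syntrophin (0.70). These 53 are the genes that reached the smallest p of the exact paired permutation test (0.00391), and the smallest value after adjustment over all genes was 0.99. That adjusted value could be small only if far more genes reached this p.

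**Figure D5:**
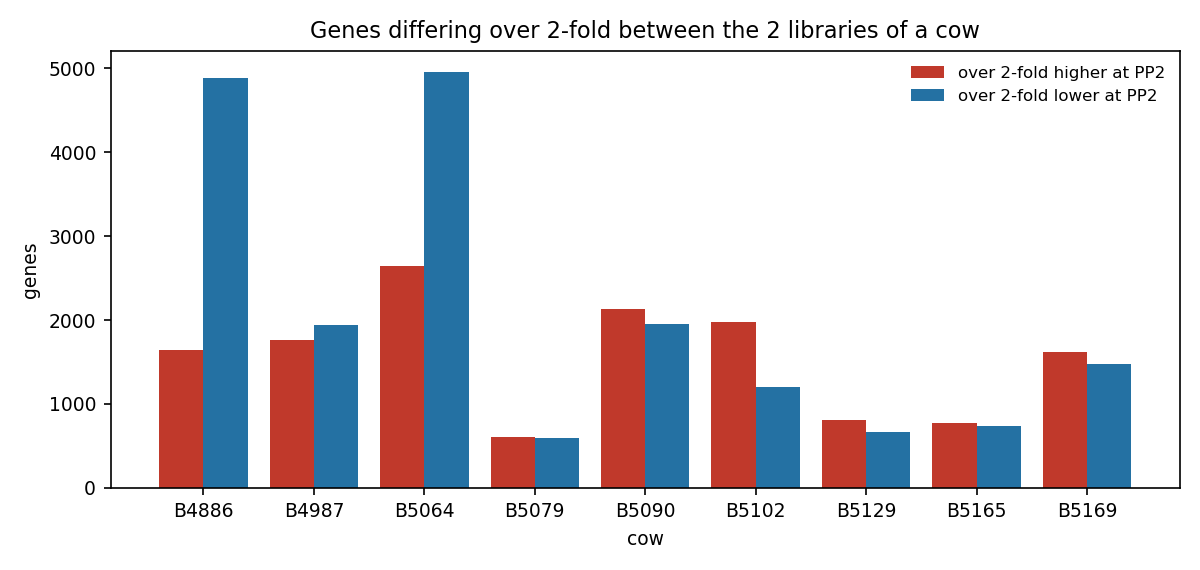
Number of genes with more than a 2-fold difference between the PP1 and PP2 library of the same cow, higher or lower at PP2, among genes with a mean of at least 1 CPM (vertical axis) for each of 9 cows (horizontal axis). B5064 and B4886 have the most genes, with 4963 and 4889 lower at PP2, and B5079 the fewest.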

How the data were processed

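RNA was measured by RNA-seq in 28 libraries of bovine subcutaneous AT, of which the 19 at PP1 and PP2 were compared. The deposited values are raw read counts per Ensembl gene. The authors filtered reads, mapped them to bosTau7 with HISAT2 2.1.0 and counted them with HTSeq 0.6.1, per their methods and the submitters' processing notes. The deposited counts are not normalized, and a log2 normalization that the authors' methods give was a later step. Strandedness is not given in the sources used here, so antisense, overlapping and near-identical genes are uncertain. The authors' own comparisons were not used. Symbols were taken from the gene list of the supplement as far as it was available, and no coordinates or sequences were used.

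Counts were scaled by TMM and tested with the quasi-likelihood test of edgeR 4.0.16 in R 4.3.3, without a block, after a filter of 3 reads in 1 library. P-values were adjusted by Benjamini-Hochberg over all genes tested. CPM of single libraries were TMM-scaled, and log2 CPM used a prior count of 1. Single genes were also tested with an exact paired permutation test, two-sided, over 9 cows. Alternatives were DESeq2 1.42.0, voom of limma 3.58.1 with weights for library quality, other scalings and filters, a likelihood ratio test, a joint fit of the 3 time points, a replicate block for cow, a restriction to cows with both libraries, and leaving out each cow. The edgeR and exact tests were tested on simulated data. Depth limits low genes, and 3 reads were 0.129 to 0.201 CPM.

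The cow in the sample titles pairs the libraries, and residuals of the 9 same-cow pairs had a mean correlation of 0.102, against -0.0103 for other pairs. The pathway lists and members were chosen with earlier results of these data known. Genes named by rule include those of the study's text with a linked ID and enough reads, which were ACAT2, CYP1A1, MAOB and PCK1. Other genes of that text were not taken by this part of the rule. The rule also takes the gene of each list with the smallest p and that with the highest mean CPM. Further, it takes the 5 genes with a symbol and the 1 without that have the smallest p in each direction, and any DEG of the fit with the cow block. Of the genes with a symbol that were lower, 4 are reported and the fifth is not reported here. CD68, IL18, MFAP5, IGSF10, FZD7, WNT16, PFKM, HSPB8, CRYAB, MKI67, ACSM1, PSTPIP2, TYRO3, TCIRG1, HCLS1 and the genes with 1 direction in all cows fall outside it, and their choice came after their values were known.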

Additional observations from a re-analysis of the deposited data

Results flagged for a closer look

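Of 144 sets of values within PP1 or PP2, 33 had a library far from the others of its group, where chance gives about 1 in 20, or 7.2. Many of the genes were named for their small p, which the PP2 library of B5090 gave, so that part of the excess over chance comes from the choice of genes. The PP2 library of B5090 was the one in 15 of them and the library labelled PP1 of B5169 in 9. All values here are log2 CPM, or mean log2 CPM over a list, beside the nearest other library.

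In the PP2 library of B5090 the skeletal muscle list was at 7.45 (nearest -0.99), glycolysis, glycogen and citrate cycle at 6.73 (5.11), the respiratory chain at 7.50 (6.30) and the mitochondrial ribosome at 5.18 (4.51). Single genes were PYGM at 12.70, MYO18B at 9.82, MYOZ2 at 8.41, CKMT2 at 8.28, HSPB2 at 7.40, COX8B at 7.18, MYADML2 at 6.35 and WFIKKN2 at 5.49. Those without symbol were ENSBTAG00000007090 at 14.34 and ENSBTAG00000007547 at 7.02. LGALS3 was lower there, at 5.61 (7.30).

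In the library labelled PP1 of B5169 the respiratory chain was at 7.78 (6.51) and the mitochondrial ribosome at 5.19 (4.64), while the macrophage list was at 3.21 (4.05) and MSR1 at 3.94 (5.51). ATP5F1A was at 10.45, PCYT2 at 8.84, BDH1 at 7.46, ACAT2 at 6.18 and MRPL19 at 4.99, each above the other PP1 libraries.

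Elsewhere, the PP2 library of B4886 was low for the adipocyte list (3.49, nearest 4.50) and for ACBD7 (-3.19), and that of B5064 for the cytokine list (0.59, nearest 1.15). The PP1 library of B5102 was low for the epithelium and skin list (-0.68) and for MAOB (-0.50), and that of B4987 for the peripheral nerve list (-1.03). Values of 3 or fewer reads stood apart for MYADML2 in the PP1 library of B5079 (-2.71) and for PLG and ENSBTAG00000007547 in that of B5090 (both -3.21).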

How the results depend on the processing

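DEGs numbered 0 except with all 3 time points in 1 fit (176), the likelihood ratio test (160) and cow as a replicate block (1), and were 0 to 0 when each cow was left out. Of the directions of the 18 gene lists, 11 were kept under limma voom, 8 without 4 libraries and 12 to 18 when each cow was left out. Fits without both or 4 libraries, of voom with the block, and of lists without 3 muscle genes were chosen after seeing the data. Of 49 named genes, 25 had 1 sign in every setting that tested them and 24 had the other sign in at least 1. Leaving out 1 cow moved the log2FC of 34 of the 49 by over 1.5 times. The cow block lost or gained no other call.

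For 7 of the 24 (CERS2, DOCK8, EPHX1, MRPL9, NR4A1, RBP4 and RPS12) the value with the other sign was never more than 1 SE from the main one. The other 17 moved by over 1 SE in at least 1 setting, and those values follow, while 30 smaller sign changes, which include some of these genes, are not listed. Without 4 libraries it was 0.28 for ACAT2, 0.20 for PCK1, 0.16 for BDH1, -0.23 for COX8B, -0.01 for ECE1, -0.18 for PDGFRB, 0.02 for HAUS1, -0.14 for HSPB2 and -0.21 for MYO18B. Without both libraries that stood apart it was 0.09 for ACAT2, 0.22 for PCYT2, -0.08 for COX8B and -0.32 for MYO18B. Without the library labelled PP1 of B5169 it was 0.01 for ACAT2, 0.29 for PCYT2, 0.93 for BDH1 and 0.17 for ATP5F1A, and without the PP2 library of B5090 -0.18 for COX8B and -0.28 for MYO18B. Under voom it was 0.07 for MAOB, 0.88 for PCK1, -0.05 for COX8B, -0.17 for PKM, -0.13 for PDGFRB, -0.12 for DNMT1 and -0.08 for HSPB2, and with the block in voom -0.05 for COX8B, -0.21 for PDGFRB and 0.06 for HSP90AB1. Under DESeq2 it was 0.32 for PCYT2, -0.16 for COX8B, -0.28 for MYO18B, -0.22 for MYADML2 and -0.22 for ENSBTAG00000007090. When each cow was left out, ACAT2 ran from -0.84 to 0.01, PCYT2 from -1.36 to 0.32, BDH1 from -4.37 to 1.09, COX8B from -0.22 to 1.11, ATP5F1A from -0.40 to 0.20 and MYO18B from -0.36 to 9.03. The low-count genes among these are limited by depth. Where no library was left out, the cause was not tested.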
